A study of Rattus norvegicus with 2 samples.

Results

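Bipolar cell marker genes were examined in retina of Long-Evans rats aged 2 months, in 1 library after a sham procedure (CTRL) and 1 library from retina taken 12 hours after reperfusion that followed ischemia (IR12). The members were 9 named genes, Trpm1, Nyx, Gpr179, Prkca, Pcp2, Bhlhe23, Vsx1, Cabp5 and Lrtm1, and they were taken from the gene table by exact match of the gene symbol. Of the 9 genes, 8 matched 1 row each among the 32662 genes of the table, and the expression of Lrtm1 was not analysed here. The animals were female by the methods of the study, which lists no transgene or other agent for either group. RNA was sequenced after rRNA removal, and gene expression was given as FPKM, a value per transcript length and per sequenced reads. How these values were scaled between the libraries is not given in the sources used here. With 1 library per condition, no difference between CTRL and IR12 has a replicate check, and no test was made. Changes are log2 ratios of (FPKM + 1), IR12 over CTRL. The added 1 makes the change of weakly expressed genes look smaller than it is.

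Bipolar cells are the interneurons that carry the signal of photoreceptors to amacrine and ganglion cells. ON bipolar cells, which include the rod bipolar cells, sense glutamate through the metabotropic receptor mGluR6, encoded by Grm6, and a G protein cascade that closes the cation channel TRPM1 in the dark. OFF bipolar cells use ionotropic glutamate receptors, so that light hyperpolarises them.

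All 8 members with a row had an FPKM of at least 1 in both libraries, and the retina label was met by high levels of rod transcripts, with an FPKM of Gnat1, rod transducin, of 4027 in CTRL and of 4237 in IR12. As deposited, 7 of the 8 members were lower in IR12 and Pcp2 was higher. Their median log2 ratio was -0.34, whereas that of the 13599 genes that reached FPKM 1 in either library was 0.02. As deposited, 48.2% of these 13599 genes were lower in IR12 by any amount. On the TPM scale, with both libraries rescaled to the same sum, only Prkca and Cabp5 were lower. The median log2 ratio of all genes was 0.59 on that scale, and the share of all genes that were lower there is not given here. No member passed a 2-fold difference in either direction on any of the scales. As deposited, 6.12% of all genes were at least 2-fold lower and 6.56% at least 2-fold higher. On the TPM scale, 436 of the 13599 genes were at least 2-fold lower and 2817 at least 2-fold higher. After rescaling without small RNAs the numbers were 948 and 795. In bulk retina, fewer bipolar cells and less RNA per bipolar cell cannot be told apart.

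The scale of the libraries bears on each of these directions. Small non-coding RNAs held 68.1% of summed FPKM in CTRL and 46.4% in IR12, and the TPM scale raised the median log2 ratio of all genes by 0.57. Rescaling to the same sum over the other genes, without small RNAs, moved that median by -0.09. Positions are therefore given below relative to the median log2 ratio of all genes on the same scale, which was 0.02 as deposited, 0.59 on the TPM scale and -0.07 without small RNAs. The same 7 members lay below this median on all 3 scales, and Pcp2 lay above it on all 3.

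**Figure D1:**
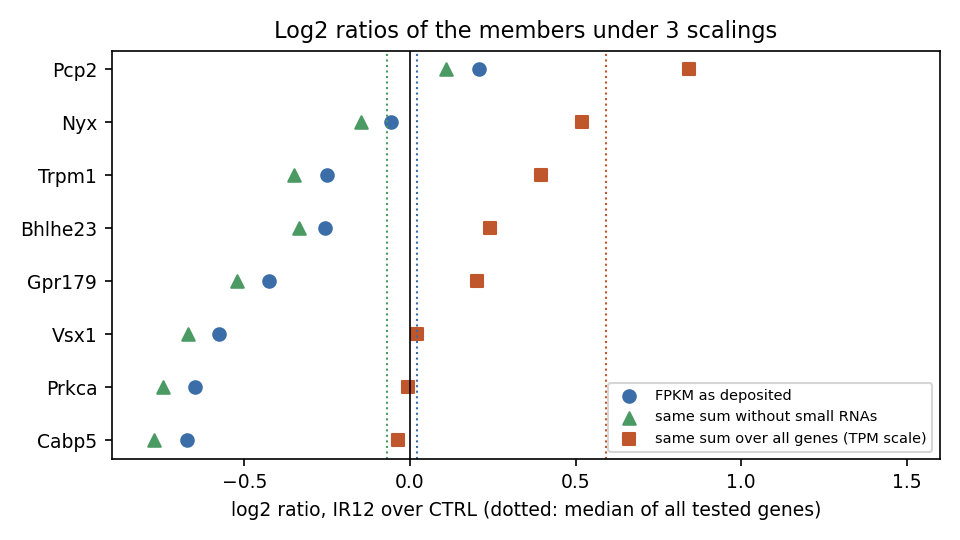
Log2 ratio of each of the 8 members (x axis, IR12 over CTRL) with FPKM as deposited (circles), rescaled without small RNAs (triangles) and on the TPM scale (squares), with 1 library per condition. Dotted lines in the same colours mark the median of all 13599 genes on each scale, and 7 members lie left of their line on every scale while Pcp2 lies right of it.

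Trpm1, the cation channel at the end of the ON cascade, had the highest level of the members in both libraries. Its FPKM was 189 in CTRL and 159 in IR12 (rn6, chr1:124983452-125099573), higher than 96.6% of the genes that reached FPKM 1 in CTRL. Its log2 ratio was -0.25 as deposited and 0.39 on the TPM scale, and -0.27 after the median of all genes was subtracted from the first. A microRNA gene, Mir211, and AABR07004101.1 share the listed locus of Trpm1, and both were listed at 0 in both libraries. Nyx encodes nyctalopin, a leucine-rich repeat protein that holds TRPM1 at the dendritic tips of ON bipolar cells. Its FPKM was 9.14 in CTRL and 8.74 in IR12 (chrX:10197547-10218583), and its log2 ratio of -0.06 was the nearest to the median of all genes among the members that were lower. Gpr179, an orphan receptor that anchors regulators of G protein signalling in the same complex, had an FPKM of 36.1 in CTRL and of 26.6 in IR12 (chr10:85274057-85289777). The log2 ratio of Gpr179 was -0.43, and 19.9% of all genes had a lower one.

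Prkca encodes protein kinase C alpha, the classic marker of rod bipolar cells, which other retinal cells also express. Its FPKM was 125 in CTRL and 79.7 in IR12 (chr10:96191133-96584947). With a log2 ratio of -0.65 as deposited and -0.01 on the TPM scale, Prkca lay furthest below the median of all genes among the 6 ON members, and 11.9% of all genes had a lower log2 ratio. Pcp2, a modulator of G protein signalling found in rod bipolar and some cone bipolar cells, had an FPKM of 47.4 in CTRL and of 55.0 in IR12 (chr12:2170630-2174131). It was the only member higher in IR12 as deposited, with a log2 ratio of 0.21, and it was also above 0 without small RNAs (0.11) and on the TPM scale (0.84). The table gives Pet100 the same locus as Pcp2, with an FPKM of 9.33 in CTRL and of 9.02 in IR12, and how reads of this locus were split between both genes was not tested. Bhlhe23, a transcription factor needed for the maturation of rod bipolar cells, had the lowest level of the members, with an FPKM of 3.97 in CTRL and of 3.15 in IR12 (chr3:176279997-176282211). Its log2 ratio was -0.26.

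Outside the ON members, Vsx1 and Cabp5 were both lower in IR12 as deposited. Vsx1, a homeobox transcription factor of cone bipolar cells and mainly of OFF types, had an FPKM of 15.3 in CTRL and of 9.92 in IR12 (chr3:146484238-146491837). Its log2 ratio was -0.58 as deposited and 0.020 on the TPM scale. Cabp5, a calcium-binding protein found in rod bipolar cells and in both ON and OFF cone bipolar types, had an FPKM of 104 in CTRL and of 64.7 in IR12 (chr1:75693232-75706069). Its log2 ratio of -0.67, or -0.03 on the TPM scale, was the lowest of the members, and 11.0% of all genes had a lower one.

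**Figure D2:**
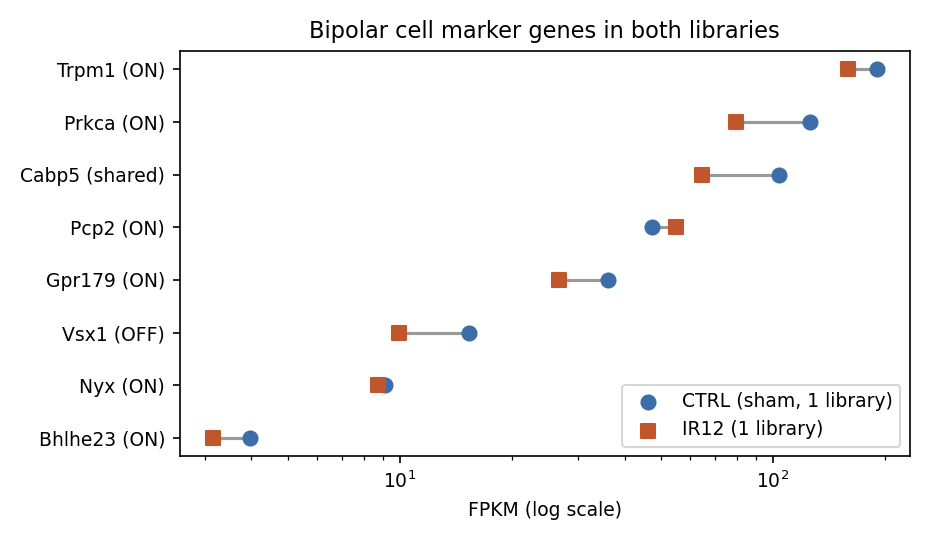
FPKM of the 8 members (x axis, log scale) in CTRL (circles) and IR12 (squares), 1 library each, ordered by their level in CTRL with the role of each gene in brackets. The order of levels is the same in both libraries, from Trpm1 at 189 and 159 to Bhlhe23 at 3.97 and 3.15, and Pcp2 is the only gene with the square on the right.

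The order of the 8 levels was the same in CTRL and IR12, from Trpm1 through Prkca, Cabp5, Pcp2, Gpr179, Vsx1 and Nyx to Bhlhe23. Since the values of 1 library share 1 scaling, the ratio of the FPKM of a pair of genes within a library does not depend on that scaling. Prkca was 2.64 times Pcp2 in CTRL and 1.45 times Pcp2 in IR12. Trpm1 was 1.51 times Prkca in CTRL and 2.00 times in IR12, and it was 1.83 times Cabp5 in CTRL and 2.46 times in IR12. Prkca and Cabp5 kept nearly the same ratio to each other, 1.21 in CTRL and 1.23 in IR12. Gpr179 and Grm6 did likewise, with 1.27 and 1.28. Trpm1 was 20.7 times Nyx in CTRL and 18.2 times Nyx in IR12. Thus the members did not change by one common factor. Trpm1 was also 12.4 times Vsx1 in CTRL and 16.0 times in IR12, and 5.24 and 5.98 times Gpr179. Prkca, Cabp5, Vsx1 and Gpr179 were thus lower relative to Trpm1, and Pcp2 and Nyx were higher relative to it.

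The reads behind these values differ between members. The lowest repeated FPKM values were taken to be single reads, which the table cannot show as it holds no counts. By this assumption an FPKM of 1 was worth about 15.4 reads per kb of effective length in CTRL and 26.3 in IR12. On this basis Bhlhe23 rested on about 61 reads per kb in CTRL and 83 in IR12, and Nyx on 141 and 230. Trpm1 rested on 2919 and 4190 reads per kb. The reads per FPKM differed 1.71-fold between the libraries, a larger factor than that between the read totals the study states. The reason for this gap was not tested, so the reads per kb are rough. The number of reads behind a gene also depends on its transcript length, which the table does not give, and variation between animals is not covered by any of these numbers.

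The ON members were compared with the OFF and the shared member. The 6 ON members had a median log2 ratio of -0.25, from -0.65 for Prkca to 0.21 for Pcp2, and 5 of them lay below the median of all genes. The value of the OFF member Vsx1, -0.58, fell inside the range of the ON members, and that of the shared member Cabp5, -0.67, fell just below it. The median of the ON members was 0.32 on the TPM scale, with Vsx1 at 0.020 and Cabp5 at -0.03, so the ON median lay above both genes there as well. With 1 OFF gene and 1 shared gene, these are differences between single genes, and no difference between the classes was tested.

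Other genes of the same classes gave 1 further comparison. Of 7 other ON bipolar genes, 6 had a row, and 3 of these were lower and 3 higher in IR12 as deposited, with a median log2 ratio of 0.12 (0.71 on the TPM scale). Grm6, the mGluR6 receptor gene itself, had an FPKM of 28.4 in CTRL and of 20.8 in IR12, with a log2 ratio of -0.43 as deposited and 0.19 on the TPM scale. Isl1, a transcription factor of ON bipolar cells that amacrine and ganglion cells also express, had 66.1 in CTRL and 40.2 in IR12. Sebox, a homeobox gene of rod bipolar cells, had 29.0 in CTRL and 43.5 in IR12. Kcng4, a potassium channel subunit listed here as a marker of type 5 cone bipolar cells, had 0.706 in CTRL and 8.85 in IR12. Its log2 ratio of 2.53 was the largest of all bipolar genes examined, and which cells its reads came from was not tested. Kcng4 reached FPKM 1 only in IR12, and without it the median of the other 5 genes was -0.038 as deposited and 0.61 on the TPM scale, so the sign of the list median as deposited rests on this gene. Htr3a, the serotonin receptor subunit, had 4.44 in CTRL and 5.64 in IR12. Sebox, Kcng4 and Htr3a were above the median of all genes on each of the 3 scales. On the TPM scale Sebox also passed 2-fold (1.19), and 2817 of the 13599 genes were at least 2-fold higher there.

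All 8 other OFF bipolar genes had a row, and as deposited 7 were lower in IR12. Their list had a median log2 ratio of -0.32, which became 0.19 on the TPM scale. These 7 lay below the median of all genes on each scale. Bhlhe22, a transcription factor of type 2 cone bipolar cells that amacrine cells also express, had an FPKM of 17.3 in CTRL and of 5.13 in IR12. Its log2 ratio was -1.57 as deposited and -0.98 on the TPM scale, just short of 2-fold there with 1 added to both values. With 0.1 added it was -1.73 as deposited, and 0.1 was not tried on the TPM scale. Bhlhe22 was the only gene of the list at least 2-fold lower. The tachykinin receptor gene Tacr3 had 7.50 in CTRL and 5.85 in IR12, and Prkar2b, a regulatory subunit of protein kinase A, had 19.6 and 13.3. Irx6, Syt2, Hcn4 and Fezf2 had an FPKM under 5 in both libraries, with log2 ratios between -0.41 and -0.23 as deposited. The exception was Grik1, a kainate receptor subunit that OFF bipolar cells use to sense glutamate, with 48.6 in both libraries. Grik1 was below the median of all genes as deposited and without small RNAs, and above it on the TPM scale. Grik1 was 3.17 times Vsx1 in CTRL and 4.90 times Vsx1 in IR12.

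All 7 other shared bipolar genes had a row, and Otx2, a homeobox gene that photoreceptors and bipolar cells express, was listed at 0 in both libraries. A listed 0 can be a failed estimate, so nothing is read from it. Of the other 6 genes, 4 were lower in IR12 as deposited, and the median was -0.26 (0.38 on the TPM scale). Neurod4, a basic helix-loop-helix factor, had the highest level with 195 in CTRL and 163 in IR12. Scgn, the calcium-binding protein secretagogin, had 87.4 in CTRL and 62.0 in IR12. The GABA receptor subunits parted, with Gabrr1 at 43.7 and 36.7 and Gabrr2 at 34.6 and 39.1. Prdm8 had 8.04 and 6.08. Lhx4 had 5.44 and 5.82, and its log2 ratio of 0.08 was 0.62 on the TPM scale but -0.0027 without small RNAs. The log2 ratios ranged from -0.70 to 2.53 over the other ON genes, from -1.57 to 0.0021 over the other OFF genes and from -0.49 to 0.17 over the other shared genes, so that the 3 lists overlapped.

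**Figure D3:**
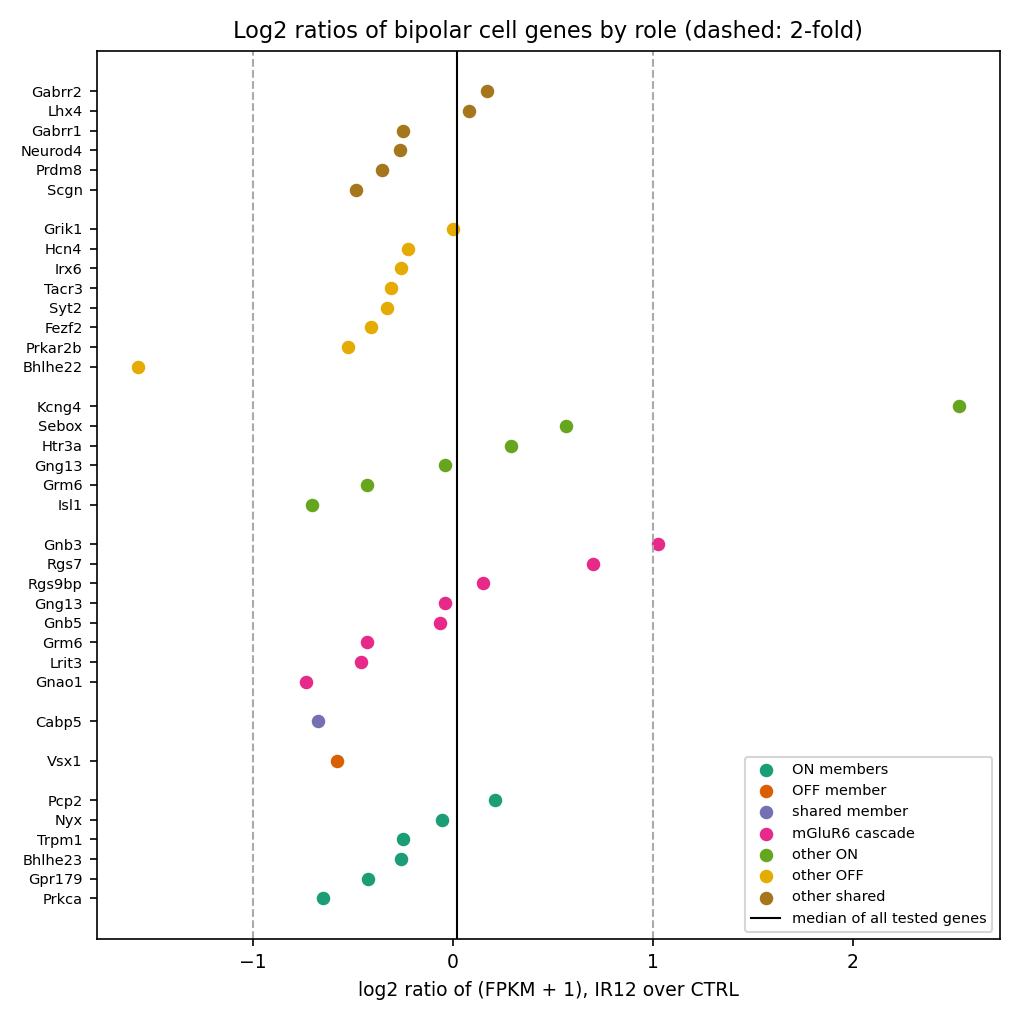
Log2 ratio of (FPKM + 1), IR12 over CTRL as deposited (x axis), for the members and the other bipolar genes by role, 1 library per condition. The solid line is the median of all 13599 genes (0.02). Dashed lines mark 2-fold differences, which Bhlhe22 passes to the left and Kcng4 and Gnb3 to the right. On the TPM scale, where 2817 of the 13599 genes are at least 2-fold higher, Rgs7 and Sebox reach 2-fold. Bhlhe22 falls just short of it there with 1 added to both values. Without small RNAs Gnb3 does not reach it.

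The mGluR6 cascade holds the receptor, its G protein and the regulators that end the signal. Of 9 cascade genes, 8 had a row, Rgs11 being the one not analysed here, and 2 of the 8, Grm6 and Gng13, are also among the other ON genes. As deposited 5 were lower and 3 higher, with a median log2 ratio of -0.05 that was 0.57 on the TPM scale. Gnao1, the alpha subunit of the G protein Go, which many neurons express, had an FPKM of 36.2 in CTRL and of 21.4 in IR12, with a log2 ratio of -0.74. The beta subunit Gnb3 went the other way, from 71.9 in CTRL to 147 in IR12. Its log2 ratio was 1.02 as deposited, 1.66 on the TPM scale and 0.92 without small RNAs, where it does not reach 2-fold. The gamma subunit Gng13 had 182 in CTRL and 177 in IR12, near the median of all genes and on either side of it by scale. The FPKM of Gng13 was 2.53 times that of Gnb3 in CTRL and 1.20 times in IR12, and Gnao1 was 0.504 times Gnb3 in CTRL and 0.145 times in IR12. Thus the 3 subunits of the G protein changed by unequal factors whatever the scaling.

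Cones also express Gnb3, and the cone transducin alpha subunit Gnat2, with which it pairs there, had 179 in CTRL and 138 in IR12. Gnat2 was therefore 2.49 times Gnb3 in CTRL and 0.939 times in IR12. The regulator Rgs7 had 50.1 in CTRL and 81.9 in IR12, above the median of all genes on each scale. Rgs7 passed 2-fold on the TPM scale (1.33), where 2817 of the 13599 genes were at least 2-fold higher. Gnb5, the partner subunit of Rgs7, had 169 and 162. The anchor protein Rgs9bp, known from photoreceptors, had 1.78 and 2.08. Lrit3, a leucine-rich repeat protein required for TRPM1 at the dendritic tips, had 31.5 in CTRL and 22.6 in IR12, with a log2 ratio of -0.46. Grm6, Gpr179 and Lrit3, the receptor and 2 proteins of its complex, thus had log2 ratios between -0.46 and -0.43 as deposited. On the TPM scale they had between 0.16 and 0.20, and they lay below the median of all genes on both scales. These genes are not one of the lists, so their closeness describes them alone and not the complex. As deposited, the other cascade genes and the members Trpm1 (-0.25) and Nyx (-0.06) lay outside their range. Those cascade genes ran from -0.74 for Gnao1 to 1.02 for Gnb3, with Gnb5 at -0.06 and Rgs7 at 0.70. Trpm1 was 6.68 times Grm6 in CTRL and 7.65 times in IR12.

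The 3 genes nearest to Trpm1 in the levels of both libraries, by the distance of log2(FPKM + 1), were Ndufa6 with 192 in CTRL and 155 in IR12, Lgalsl with 195 and 158, and Tusc3 with 189 and 164. The distances were between 0.04 and 0.05, and 10 genes lay within 0.1. With 2 libraries this describes levels only.

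Promoter windows of 300 bases, from 250 before to 50 after the start of the gene, are given by RefSeq on build GRCr8 for 7 of the 9 members. They are shown for Trpm1, Nyx, Vsx1 and Pcp2, that is for the channel and nyctalopin of the ON cascade, the OFF member and the member that was higher in IR12 as deposited. In all, 7 short motifs were searched on both strands. TAATCC is the core bound by the homeodomain factors CRX and OTX2, and TAATTA is a core of many other homeodomain factors. CAGATG is an E-box of basic helix-loop-helix factors, and a second E-box searched for such factors was CAGCTG. The general promoter motifs searched were the TATA box TATAAA, then the CCAAT box, and the GC box that Sp1 binds, written GGGCGG. Capitals mark TAATCC and CAGATG on either strand, and the sequences are printed 5′ to 3′ on the strand of the gene, for Trpm1 from chr1:127130436-127130735 (plus strand), for Nyx from chrX:11974667-11974966 (minus strand), for Vsx1 from chr3:159982243-159982542 (minus strand) and for Pcp2 from chr12:6481258-6481557 (minus strand).
Trpm1: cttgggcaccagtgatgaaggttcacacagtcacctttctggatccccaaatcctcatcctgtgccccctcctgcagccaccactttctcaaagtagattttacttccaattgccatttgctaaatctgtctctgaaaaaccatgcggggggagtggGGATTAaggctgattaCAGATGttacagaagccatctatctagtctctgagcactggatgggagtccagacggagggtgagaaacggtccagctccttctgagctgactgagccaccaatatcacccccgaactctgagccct
Nyx: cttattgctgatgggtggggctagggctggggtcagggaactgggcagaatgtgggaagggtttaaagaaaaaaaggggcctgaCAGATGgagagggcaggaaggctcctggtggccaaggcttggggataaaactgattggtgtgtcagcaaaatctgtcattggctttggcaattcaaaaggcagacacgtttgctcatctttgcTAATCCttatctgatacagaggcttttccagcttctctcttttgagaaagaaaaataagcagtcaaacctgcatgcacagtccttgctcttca
Vsx1: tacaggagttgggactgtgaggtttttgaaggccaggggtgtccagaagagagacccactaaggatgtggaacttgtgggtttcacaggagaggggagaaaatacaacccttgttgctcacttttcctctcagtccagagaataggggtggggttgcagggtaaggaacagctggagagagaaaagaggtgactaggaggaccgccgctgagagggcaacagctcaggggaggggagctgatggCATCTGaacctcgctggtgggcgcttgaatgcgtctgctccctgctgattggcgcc
Pcp2: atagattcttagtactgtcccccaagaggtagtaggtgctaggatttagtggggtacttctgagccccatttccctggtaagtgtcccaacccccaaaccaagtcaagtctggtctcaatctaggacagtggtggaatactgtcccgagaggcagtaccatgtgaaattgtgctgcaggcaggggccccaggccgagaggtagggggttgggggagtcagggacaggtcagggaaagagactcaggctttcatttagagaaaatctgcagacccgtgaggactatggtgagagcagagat

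TAATCC was found in the windows of Trpm1 and Nyx, and in 7.17% of the 33469 promoter windows of the genome. In Trpm1 it lies at bases 158 to 163 of the window on the opposite strand, and in Nyx at bases 208 to 213 on the strand of the gene. CAGATG was found in Trpm1, Nyx and Vsx1, and in 16.6% of all windows. Both motifs together, as in Trpm1 and Nyx, were in 1.25% of all windows. This share was computed for no other pair of the 7 motifs, so nothing is read from it. CAGCTG, in 15.1% of all windows, was found in Vsx1 and Bhlhe23. CCAAT, in 37.5%, was found in Trpm1, Nyx, Vsx1 and Bhlhe23, and GGGCGG, in 33.1%, in Prkca. TATAAA, in 14.2%, was found in Lrtm1 alone among the 7, and TAATTA, in 5.36%, in none of them. None of the 7 motifs was found in the window of Pcp2. A match describes letters of the window and not a bound site.

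Markers of other retinal cells moved as well, and their part in the values of the bipolar genes was not tested. Some of these markers reached FPKM 1 in 1 library only, the one where they are higher, so medians over the genes that reached it in both libraries, an alternative chosen after seeing the data, are given beside the first. All 7 Müller glia markers were at least 2-fold lower in IR12 as deposited, with a median log2 ratio of -2.19 (-1.55 on the TPM scale, where 5 of the 7 passed 2-fold and Slc1a3 and Apoe, at -0.63 and -0.66, did not). Without Kcnj10, which reached FPKM 1 only in CTRL, the median was -1.93. The summed FPKM of the 7 genes was 1507 in CTRL and 352 in IR12, and the most abundant was Glul, glutamine synthetase, with 754 and 126. All 6 lens markers were at least 2-fold lower on all 3 scales, with a median of -2.45 (-1.88 on the TPM scale), a summed FPKM of 1353 in CTRL and of 158 in IR12, and Cryaa as the most abundant with 1118 and 124. Without Bfsp2, which reached FPKM 1 only in CTRL, the median was -2.68. No marker of these lists was listed at 0 in both libraries.

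Among neurons, the 7 rod markers had a median log2 ratio of 0.0027 (0.65 on the TPM scale and -0.10 without small RNAs), and their summed FPKM was 10282 in CTRL and 12672 in IR12, with Gnat1 as the most abundant in CTRL. Most of the difference in the sum came from Sag, rod arrestin, with 2482 in CTRL and 4703 in IR12, and the other 6 genes summed to 7800.2 and 7969. As deposited 3 of the 7 rod markers were lower in IR12, without small RNAs 6 were, and on the TPM scale none was. All 7 cone markers were lower as deposited, with a median of -0.37 (0.27 on the TPM scale), a summed FPKM of 417 in CTRL and of 281 in IR12, and Gnat2 as the most abundant. Of 10 amacrine markers 8 reached FPKM 1, and all 8 were lower as deposited, with a median of -0.77 (-0.20 on the TPM scale), a summed FPKM over the 9 genes with a row of 248 in CTRL and 159.6 in IR12, and Gad1 as the most abundant. Tfap2a reached FPKM 1 only in CTRL, and the median of the other 7 was -0.75. The median of the bipolar members, -0.34, lay between those of the rod and the amacrine markers, and on the TPM scale it was 0.22 and lay between them too. The medians of the cone markers, -0.37, and of the ganglion cell markers, -0.33, were close to it. On the TPM scale these were 0.27 and 0.30, so the position is not particular to bipolar genes.

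**Figure D4:**
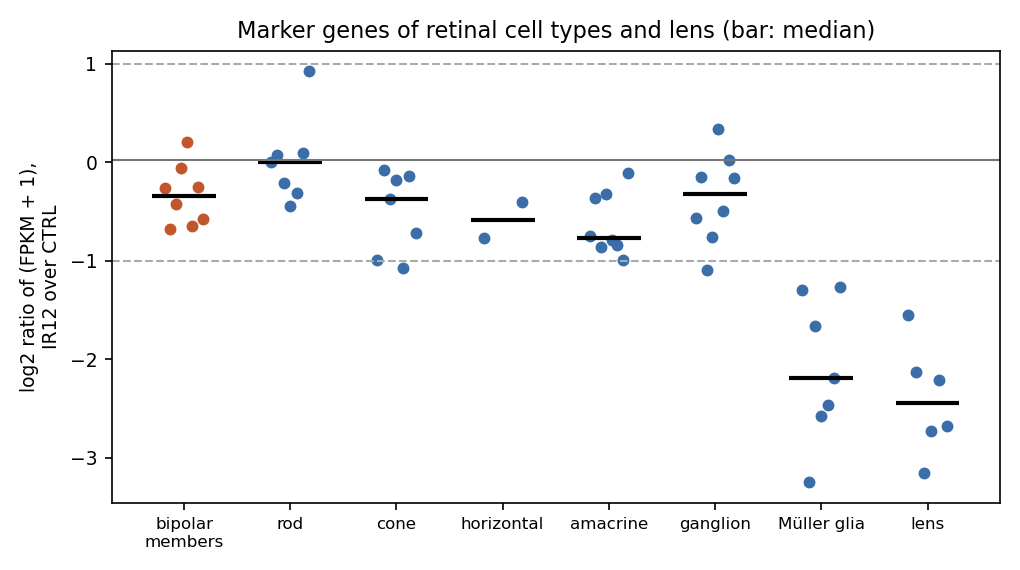
Log2 ratio of (FPKM + 1), IR12 over CTRL as deposited (y axis), of each marker gene (points) with the median of each list (bars), for the bipolar members and markers of other retinal cells and of lens, 1 library per condition. The grey line is the median of all 13599 genes (0.02) and dashed lines mark 2-fold differences; the bipolar members lie between -0.67 and 0.21, and the Müller glia and lens markers are all below -1, which Slc1a3 and Apoe do not reach on the TPM scale.

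Of 10 ganglion cell markers 8 reached FPKM 1, with a median log2 ratio of -0.33 (0.30 on the TPM scale) and a summed FPKM of 333 in CTRL and of 269.6 in IR12, with Nefl as the most abundant. Pou4f3 reached FPKM 1 only in CTRL, and without it the median was -0.16 (0.46 on the TPM scale). The horizontal cell markers that reached FPKM 1, Calb1 and Onecut1, had a median of -0.59 (-0.07 on the TPM scale), and the 4 genes of that list summed to 77.0 in CTRL and 45.2 in IR12, mostly from Calb1. Of the 6 microglia and leukocyte markers, 2 were lower and 4 higher as deposited, with a median of 0.21 (0.72 on the TPM scale), a summed FPKM of 13.9 in CTRL and of 22.8 in IR12, and Aif1 as the most abundant in CTRL. The 2 that were at least 2-fold higher on all 3 scales, Itgam with 0.693 in CTRL and 5.71 in IR12 and Ptprc with 0.408 and 2.98, reached FPKM 1 only in IR12, and Cx3cr1 reached it only in CTRL. The 3 genes that reached it in both libraries had a median of 0.03, or -0.05 without small RNAs. The 4 endothelial markers with a row had a median of -0.29 (0.22 on the TPM scale) and summed to 115 in CTRL and 73.5 in IR12. Kdr alone had 108 in CTRL and 66.8 in IR12, so the sum describes this gene rather than the list. The others were low, with Cldn5 at 2.92 and 1.65, Tek at 3.46 and 3.40 and Cdh5 at 0.883 and 1.63. Cdh5 reached FPKM 1 only in IR12, and without it the median was -0.57 (-0.04 on the TPM scale). The 2 pigment epithelium markers that reached FPKM 1 had -0.58 (-0.09 on the TPM scale), with a summed FPKM of 13.3 in CTRL and of 6.78 in IR12 over all 3.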

How the data were processed

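Both libraries came from rat retina, with a sham procedure for CTRL and 12 hours of reperfusion for IR12. The authors deposited FPKM for 32662 genes in 1 table, with 1 column per library. The submitters' processing notes name STAR 2.5.2b, Cuffdiff 2.2.0 and build rn6, without the options used. The sources name a stranded total RNA kit in one place and a stranded mRNA kit in another, both with rRNA removal. As starts are counted from 0 in the table, 1 was added to each. The FPKM columns hold no counts, so depth was read from the lowest repeated values at locus lengths shared by several genes, 17 lengths in CTRL and 25 in IR12. This step was added once the data had been seen. The 2 libraries were described without a test, with log2 ratios of (FPKM + 1) over genes with FPKM of at least 1 in at least 1 library.

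The members and lists were chosen with earlier results of these data known. Named are the 9 members, the genes of the lists and the 3 genes nearest to the member with the highest FPKM in CTRL. The other genes at the loci of members were picked with their values in view. The lists cover ON, OFF and shared bipolar genes, the mGluR6 cascade, rods, cones, amacrine, horizontal and ganglion cells, Müller glia, microglia and leukocytes, endothelium, pigment epithelium and lens. From the rod and shared bipolar lists 1 gene each was left out of all values and is not reported here. Small non-coding RNAs were recognised by symbol. The alternatives tried were both rescalings, a pseudocount of 0.1, log2 ratios centred on the median gene, and a minimum FPKM of 5 or none. A log2 value was read as moved when it shifted by more than 1.5-fold, and a count when it changed by more than 1.5 times. The steps were tested on simulated data. Tables were read with pandas 2.3.3 and numpy 2.4.6 in Python 3.11.15, slopes were fitted with scipy 1.17.1, and plots were drawn in matplotlib 3.10.9.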

Additional observations from a re-analysis of the deposited data

How the results depend on the processing

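No replicate could be left out, since each condition has 1 library. No paired analysis was possible because the comparison rests on no test and on 1 library per group. All members with a row reached FPKM 1, so using no minimum FPKM could not move their medians. The counts of members past 2-fold were 0 under every alternative. Of 89 alternative values for 18 results, with these included, 73 kept their direction within 1.5-fold. Of the others, 15 came from the TPM scale, which by its construction raises IR12 because small non-coding RNAs hold more of the sum in CTRL. On it the median log2 ratio became 0.22 over the members, 0.32 over the ON members, 0.19 over the other OFF genes, 0.38 over the other shared genes and 0.57 over the mGluR6 cascade. The log2 ratios became 0.39 for Trpm1, 0.52 for Nyx, 0.20 for Gpr179, 0.24 for Bhlhe23, 0.020 for Vsx1, -0.0067 for Prkca, -0.03 for Cabp5 and 0.84 for Pcp2. Genes at least 2-fold higher numbered 2817 in place of 892, and genes at least 2-fold lower 436 in place of 832. The members kept their side of the median of all genes, 7 below and 1 above. Without Kcng4, an alternative chosen after seeing the data, the median of the other ON genes turned from 0.12 to -0.038. Depth was read here only as reads per kb under the assumption of single reads, and read totals stated by the study did not enter it. The reads per kb were fewest for Bhlhe23 (61 in CTRL and 83 in IR12).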
